A study of Caenorhabditis elegans with 35 samples.

Results

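The intracellular lipid-binding protein genes lbp-1 to lbp-9 of Caenorhabditis elegans were followed through 7 genotypes of larvae that differ in dauer arrest. The members were the 9 loci of the gene table whose names include one of these symbols, out of 37555 loci in all. A locus is a transcription unit assembled from the reads, and 8 of the 9 lbp loci carry a single gene name, whereas lbp-3 shares its locus with the tubulin gene tba-9. Expression was measured by sequencing polyadenylated RNA from whole larvae in 35 libraries, 5 biological replicates of each genotype, each replicate being a pool of animals.

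The genotypes were wild type, the double mutant eak-7;akt-1, and 5 triple mutants. Of these, daf-16;eak-7;akt-1 was mutant for a FoxO transcription factor gene, while eak-7;akt-1;daf-12 had a mutation in a nuclear receptor gene and eak-7;akt-1 dpy-21 in a dosage compensation gene. The last 2, set-4(n4600);eak-7;akt-1 with a deletion allele and, as the fifth, set-4(dp268);eak-7;akt-1 with a point mutation, are called the set-4(n4600) and set-4(dp268) mutants from here on. All groups except wild type therefore carried the eak-7 and akt-1 mutations, and a comparison within this background says nothing of what daf-16, daf-12, dpy-21 or set-4 does when both genes are intact. More than 200 adults laid eggs at 20°C over 6 h, after which the progeny grew for 24 h at 25°C, a stage the labels give as L2/L2D. DAF-16, a FoxO transcription factor, is held back by the kinase AKT-1 of insulin-like signalling and by a second route through EAK-7. Larvae without both form dauers, non-feeding larvae that live on stored fat. DAF-12 is the nuclear receptor for the steroid hormones called dafachronic acids, DPY-21 belongs to the X chromosome dosage compensation machinery, and SET-4 methylates histone H4. The dp268 mutation lies in the catalytic domain. The comparison with eak-7;akt-1 asks which genes differ between larvae bound for dauer and larvae that are not, and which of those depend on each added mutation.

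Intracellular lipid-binding proteins are small barrel-shaped proteins that hold a fatty acid or another hydrophobic molecule in an internal cavity and carry it through the aqueous parts of the cell; the fatty acid-binding proteins of mammals belong to the same family. In C. elegans, LBP-1, LBP-2 and LBP-3 are made with a signal peptide for secretion, whereas the other members lack one. LBP-8 is known as a lysosomal lipid chaperone that moves to the nucleus, where nuclear receptors such as NHR-49 respond to the lipid signal, and LBP-5 has also been linked to NHR-49 and to fat storage.

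The scaled counts in the table are whole numbers of fragments divided by a size factor for each library, and the fragments could be read back. Each library had between 34193 and 88068 fragments (median 56780), and the 10 highest loci took 32.2 to 42.4% of them. At this depth 1101 loci were tested, those that reached 5 scaled counts in 5 or more libraries. A group of 9 libraries stood apart from the other 26 on a first principal component with 40.2% of the variance: wild type replicates 7 and 10, eak-7;akt-1 replicates 6 and 10, daf-16;eak-7;akt-1 replicate 10, eak-7;akt-1;daf-12 replicate 7, eak-7;akt-1 dpy-21 replicates 6 and 9, and replicate 7 of the set-4(n4600) mutants. No mutated gene had more than 3 fragments in any library, so the genotypes could not be checked against the table. Some genes that every cell uses, among them pmp-3 and the elongation factor gene eef-1A.1, had a listed value of 0 throughout, and a listed 0 may therefore be a value that was not estimated.

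A pair of members, lbp-6 and lbp-9, carried most of the family's signal. Over all libraries lbp-9 had 147 fragments and lbp-6 had 141, together 86.2% of the 334 fragments of the 9 genes. Next came lbp-4 with 38 fragments, lbp-7 with 7 and lbp-2 with 1. The remaining 4 members, lbp-1, lbp-3, lbp-5 and lbp-8, were listed at 0 in all 35 libraries. Where such a 0 is a count, it allows up to 1.48 CPM (fragments scaled to a total of 1000000) over all libraries, compared with 72.6 CPM for lbp-9, 69.6 for lbp-6, 18.8 for lbp-4 and 3.46 for lbp-7. The same limit, a 95% bound from 3 fragments, lies between 9.74 and 11.2 CPM over the 5 libraries of a genotype. It lies between 34.1 and 87.7 CPM in 1 library. A level of these 4 genes below the limit could have gone undetected.

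**Figure D1:**
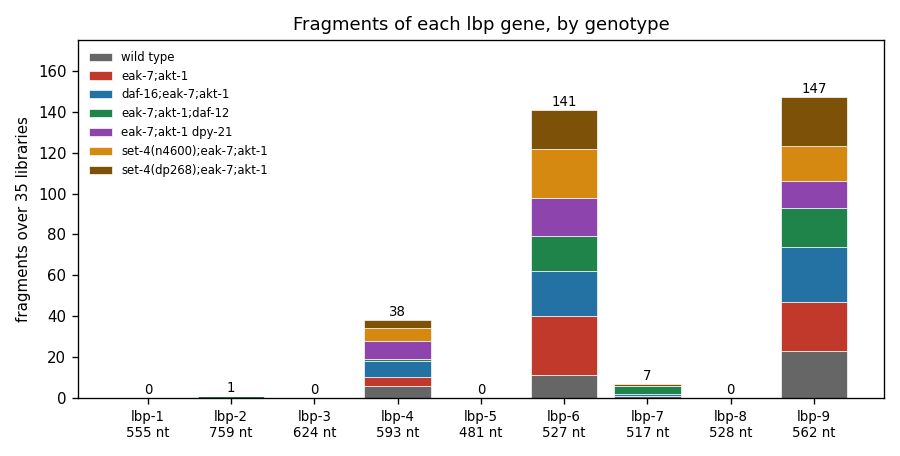
Fragments of each lbp gene summed over 35 libraries (vertical axis), stacked by genotype, with the total above each bar and the length of the longest annotated transcript in nucleotides (nt) under each name. lbp-6 and lbp-9, with 141 and 147 fragments, stand far above lbp-4 with 38, and 4 genes are at 0.

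The transcripts of the family are short and of like length, so they were set beside other loci of like length. In the WBcel235 annotation the longest transcripts ran from 481 nt for lbp-5 to 759 nt for lbp-2. Among other loci of 1 coding gene with a transcript within 10% of the same length, 29.6% (for lbp-2) to 37.3% (for lbp-5) had a fragment in any library. The share that passed the filter was 2.33% around the length of lbp-2 and 8.23% around that of lbp-5. A listed 0 was the more frequent outcome for a gene of this length, and also over the whole series, where 8710 of 37555 loci had a fragment. Of the lbp genes 5 of 9 had a fragment and 2 of 9 passed the filter. Loci with longer transcripts were not set beside these, so the part of length in the listed zeros was not tested.

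The genes lie singly or beside other members on chromosomes I, V and X. The 3 genes for secreted members form a row on the plus strand of the X chromosome: lbp-3 at X:3257372-3258155 with 4 exons, lbp-1 at X:3259142-3259812 with 3 exons and lbp-2 at X:3260610-3261470 with 3 exons. The gaps between them are 986 and 797 bp with no other coding gene. These 3 had 0, 0 and 1 fragments over all libraries. In the 5 libraries in which dpy-21 was mutant, all 3 were listed at 0. On chromosome I, lbp-6 (I:6728296-6729376, minus strand, 2 exons) and lbp-5 (I:6731267-6732276, minus strand, 2 exons) are 1890 bp apart with 1 coding gene between them, yet lbp-6 had 141 fragments and lbp-5 was listed at 0. On chromosome V, lbp-7 (V:13879552-13880213, plus strand, 2 exons) and lbp-8 (V:13890773-13891364, plus strand, 2 exons) are 10559 bp apart with 3 coding genes between them, and had 7 and 0 fragments. The other 2 genes of chromosome V, lbp-9 (V:2068449-2069142, plus strand, 3 exons) and lbp-4 (V:7820578-7821477, plus strand, 3 exons), have no lbp gene close by. A pair of loci overlap a gene on the opposite strand, lbp-6 with mec-6 and lbp-9 with Y40B10A.9. Whether counting used the strand was not given in the sources used here, so reads of such partners cannot be told apart, and the loci of both partners were listed at 0 in every library.

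For lbp-6 the lowest level was found in wild type and the highest in eak-7;akt-1, a 2.94-fold ratio of the means that did not pass the adjusted test. In scaled counts, wild type replicates 6 to 10 had 0.991, 1.065, 2.103, 4.18 and 2.46, from 1 to 5 fragments each. The eak-7;akt-1 replicates 6 to 10 had 5.71, 7.58, 5.80, 4.76 and 7.90, from 4 to 8 fragments each. All 5 wild type libraries lay below all 5 eak-7;akt-1 libraries. The wild type mean was 2.16 ± 1.297 and that of eak-7;akt-1 was 6.35 ± 1.34 (SD, n = 5). As a share of all fragments these were 39.0 CPM (95% Poisson interval 19.4 to 69.7) and 108 CPM (72.5 to 155), intervals that cover counting error only.

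The fold change of lbp-6 on the log2(scaled count + 1) scale, which understates changes of low genes, was -1.29 in wild type against eak-7;akt-1 (SE 0.47, 95% interval -2.24 to -0.34). With limma, fitted over all libraries and 1101 loci, its p was 0.00927 and its Benjamini-Hochberg adjusted p 0.0663, so it was not called at the threshold of a 1.5-fold change and an adjusted p of 0.05. An exact two-sided permutation test of these libraries alone gave p = 0.00794, the smallest that 5 against 5 can give, for a difference seen in 5 of 5 wild type libraries. Libraries separated in the same direction for 7.18% of the tested loci, and 13% of the tested loci were called in this comparison, so a locus with separated libraries was no rarity. The median fold change of all tested loci was -0.19, and after median-of-ratios rescaling, which moved that median to -0.06, the lbp-6 value was -1.16 (limma adjusted p = 0.0806).

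The lbp-6 result lay so near the threshold that single choices decided it. Without wild type replicate 9, the highest of its group, the fold change was -1.49 and the limma adjusted p 0.0384, which is past the threshold. It was also past the threshold in a fit of these 2 genotypes alone (adjusted p = 0.028) and with a pseudocount of 2 (-1.04, adjusted p = 0.0461). By contrast, edgeR (-1.36, adjusted p = 0.079) and DESeq2 (-1.36, adjusted p = 0.0911) on the fragments did not call it. Leaving out any other single replicate gave limma adjusted p-values from 0.0692 to 0.147, not past the threshold. With no filter, over 8710 loci, the limma adjusted p was 0.25. Without the 9 libraries that stood apart, the value was -1.13 with an adjusted p of 0.328, from 3 wild type libraries at 0.991 to 4.18 and 3 eak-7;akt-1 libraries at 4.76 to 7.58 scaled counts, which still did not overlap.

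In the other mutants lbp-6 lay between these levels, with overlapping libraries throughout. The mean was 4.65 ± 2.27 in set-4(n4600) mutants, 4.26 ± 1.41 with daf-16 mutated, 4.23 ± 2.67 in set-4(dp268) mutants, 3.35 ± 2.16 in eak-7;akt-1 dpy-21 and 3.19 ± 2.43 in eak-7;akt-1;daf-12 (SD, n = 5). In the order from eak-7;akt-1 down to wild type, each neighbour overlapped the next, and the gap between any 2 neighbours was smaller than the larger of their SDs.

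The single libraries show how wide these groups were. The daf-16;eak-7;akt-1 replicates 6 to 10 had 2.81, 5.30, 3.42, 3.60 and 6.16 scaled counts of lbp-6, of which 3 lay below every eak-7;akt-1 library. The eak-7;akt-1;daf-12 replicates had 1.40, 4.69, 1.03, 2.11 and 6.71, with 4 of 5 below every eak-7;akt-1 library. The eak-7;akt-1 dpy-21 replicates had 3.30, 0.866, 1.64, 4.90 and 6.03, with 3 of 5 below. In each of these groups replicate 10 was the highest and reached into the range of eak-7;akt-1. The set-4(n4600) replicates had 5.28, 6.81, 1.28, 3.50 and 6.36, and the set-4(dp268) replicates 4.88, 0, 6.49, 3.46 and 6.34. Most libraries with either set-4 allele thus lay within the range of eak-7;akt-1, with 2 of 5 below it for each allele.

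No added mutation gave an lbp-6 difference from eak-7;akt-1 that passed the test. The fold change was -0.50 in daf-16;eak-7;akt-1 (95% interval -1.45 to 0.44; limma adjusted p = 0.634), a comparison in which 10.4% of the loci were called. It was -0.98 in eak-7;akt-1;daf-12 (-1.93 to -0.03; adjusted p = 0.237; 9.99% of loci called) and -0.90 in eak-7;akt-1 dpy-21 (-1.85 to 0.05; adjusted p = 0.24; 12.3% of loci called). Exact two-sided permutation tests of these libraries gave p = 0.0556, 0.0476 and 0.0556. The intervals reach from a fall larger than that of wild type to little or no change. For set-4(n4600) the fold change was -0.49 (-1.44 to 0.46; adjusted p = 0.96; 0.182% of loci called) and for set-4(dp268) it was -0.76 (-1.71 to 0.19; adjusted p = 0.68; 0.545% of loci called). Single libraries carried much of both values: without replicate 8 of the set-4(n4600) mutants the first was -0.19, and without replicate 7 of the set-4(dp268) mutants, the library at 0, the second was -0.24. The 2 alleles did not differ from each other by the test (-0.27 for dp268 against n4600, interval -1.22 to 0.68; adjusted p = 0.937; 0.182% of loci called).

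**Figure D2:**
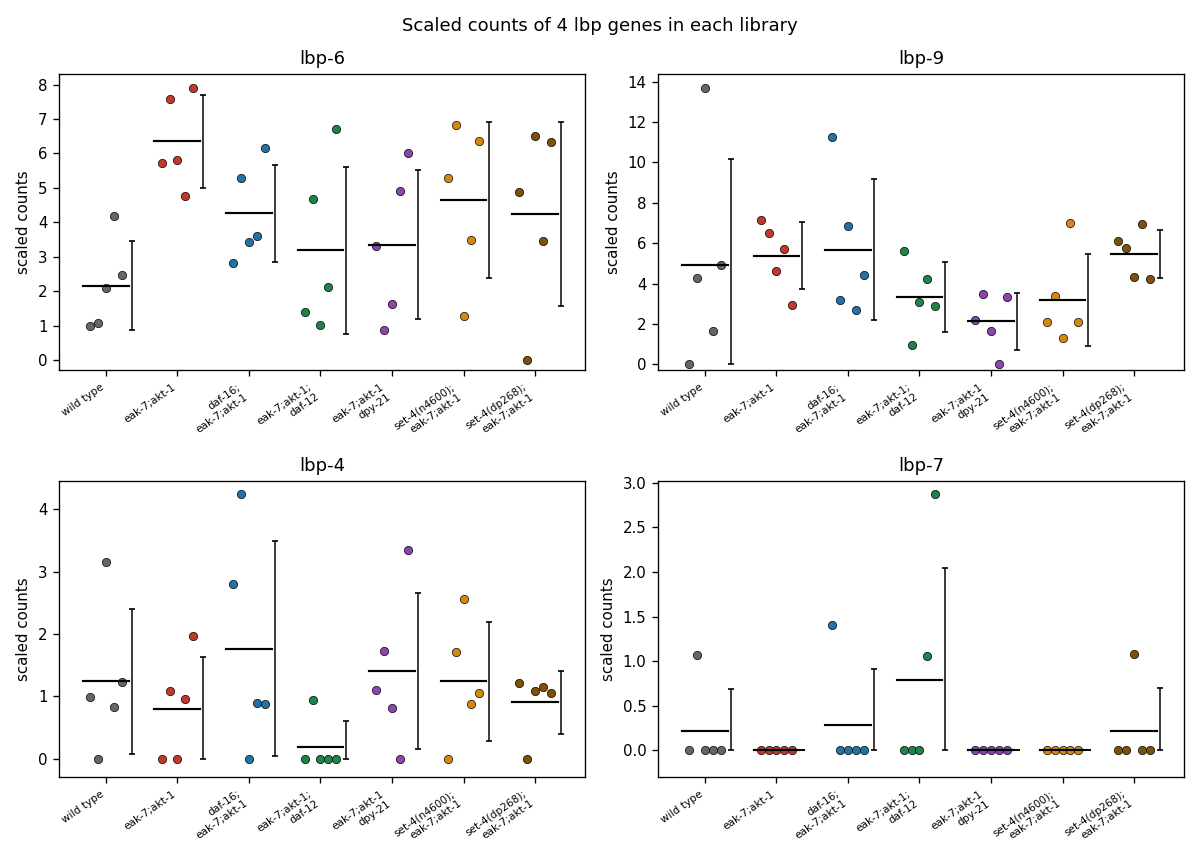
Scaled counts (vertical axes) of lbp-6, lbp-9, lbp-4 and lbp-7 in each of 35 libraries, grouped by genotype (horizontal axes); points are libraries in the order of replicates 6 to 10, horizontal bars are means and vertical bars 1 SD (n = 5), stopped at 0. For lbp-6, the 5 wild type points (0.991 to 4.18) lie below the 5 eak-7;akt-1 points (4.76 to 7.90), whereas for lbp-9 the wild type points run from 0 to 13.7.

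For lbp-9 the wild type libraries were scattered and the lowest mean was that of eak-7;akt-1 dpy-21. The wild type replicates 6 to 10 had 0, 4.26, 13.7, 1.67 and 4.92 scaled counts, or 0, 4, 13, 2 and 4 fragments. The variance of these fragments was 5.39 times their mean, whereas counting alone gives a variance equal to the mean. The eak-7;akt-1 replicates had 7.14, 6.49, 4.64, 5.71 and 2.96, a range that lay within that of wild type. The wild type mean was 4.91 ± 5.29 and that of eak-7;akt-1 was 5.39 ± 1.65 (SD, n = 5), and the fold change was -0.58 (95% interval -1.60 to 0.44; limma adjusted p = 0.541). It was -0.07 without wild type replicate 6, the library at 0, and -1.04 without replicate 8, the highest.

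The replicates 6 to 10 of eak-7;akt-1 dpy-21 had 2.201, 3.46, 1.64, 0 and 3.35 scaled counts of lbp-9, a mean of 2.13 ± 1.42 (SD, n = 5). Of these libraries, 3 of 5 lay below all eak-7;akt-1 libraries, and the other 2 overlapped with the lowest of them. The fold change against eak-7;akt-1 was -1.16 (SE 0.50, 95% interval -2.18 to -0.14), where the median of all tested loci was -0.20. With 1 replicate left out it ran from -1.33 to -0.79 (limma adjusted p from 0.11 to 0.377). With all libraries this difference was not called, since limma over the 1101 loci gave it an unadjusted p of 0.0271 and an adjusted p of 0.138. An exact two-sided permutation test gave p = 0.0238 with n = 5 in each group. Against daf-16;eak-7;akt-1, where the mean was highest, the fold change of eak-7;akt-1 dpy-21 was -1.12 (interval -2.14 to -0.10; limma adjusted p = 0.193; 6.18% of loci called). The lbp-9 gene is autosomal, on chromosome V.

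The remaining groups of lbp-9 fell into a higher and a lower set of means without a difference that passed the test. The mean was 5.67 ± 3.50 in daf-16;eak-7;akt-1, from 2.70 to 11.2 scaled counts, and 5.46 ± 1.17 in set-4(dp268) mutants, from 4.22 to 6.93. It was 3.35 ± 1.73 in eak-7;akt-1;daf-12, from 0.938 to 5.62, and 3.18 ± 2.26 in set-4(n4600) mutants, from 1.28 to 7.00 (SD, n = 5). Neighbours in this order overlapped. Set against eak-7;akt-1, the log2 values were -0.04 for daf-16 (95% interval -1.06 to 0.98), -0.62 for daf-12 (-1.64 to 0.40), -0.71 for set-4(n4600) (-1.73 to 0.31) and 0.04 for set-4(dp268) (-0.98 to 1.06), with limma adjusted p-values of 0.99, 0.596, 0.96 and 0.991. The signs of the daf-16 and set-4(dp268) values turned under other settings. The means of the 2 set-4 alleles lay 0.75 apart on the log2 scale (-0.27 to 1.77; limma adjusted p = 0.937).

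**Figure D3:**
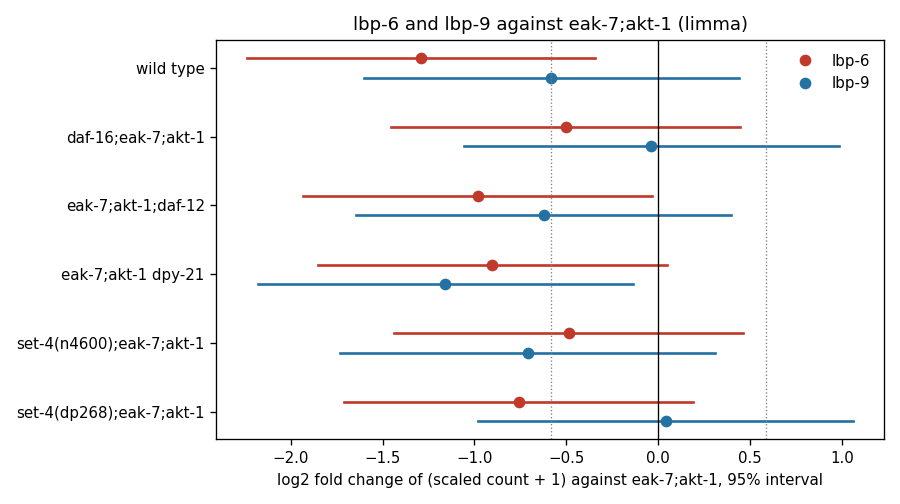
Log2 fold change of (scaled count + 1) of lbp-6 (red) and lbp-9 (blue) in each of 6 genotypes (vertical axis) against eak-7;akt-1 (horizontal axis), with 95% intervals from limma; the solid line marks no change and the dotted lines a 1.5-fold change. The lbp-6 intervals in wild type (-2.24 to -0.34) and eak-7;akt-1;daf-12 (-1.93 to -0.03) lie below 0 before adjustment over the 1101 loci. So does the lbp-9 interval in eak-7;akt-1 dpy-21 (-2.18 to -0.14).

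Over the 15 comparisons, limma called neither lbp-6 nor lbp-9. Of the 30 tests of these 2 loci, 4 had an unadjusted p under 0.05, 2 for lbp-6 (wild type and eak-7;akt-1;daf-12 against eak-7;akt-1) and 2 for lbp-9 (eak-7;akt-1 dpy-21 against eak-7;akt-1 and against daf-16;eak-7;akt-1). These were 13.3% of the lbp tests, whereas over all tested loci and the same comparisons the share was 16.1%. The numbers called by edgeR and by DESeq2 were 0 and 0. The 6 comparisons with eak-7;akt-1 share its libraries, so the lbp-6 values in them, all negative, share the high level of that group. Against wild type, lbp-6 was 0.79 higher with the added daf-16 mutation, 0.31 with daf-12, 0.39 with dpy-21, 0.80 with set-4(n4600) and 0.53 with set-4(dp268) on the log2 scale, with limma adjusted p-values from 0.307 to 0.861. The shares of all tested loci called in these 5 comparisons were 0.817%, 1.09%, 7.99%, 12% and 13.7%. In the comparisons of eak-7;akt-1;daf-12 with daf-16;eak-7;akt-1 (0.636% of loci called) and of eak-7;akt-1 dpy-21 with eak-7;akt-1;daf-12 (5.63% of loci called), neither gene passed the test. No adjusted p in the 9 comparisons that leave out eak-7;akt-1 was below 0.193.

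The filter that let lbp-6 and lbp-9 into the test did not rest on eak-7;akt-1 alone. Of the 13 libraries in which lbp-6 had at least 5 scaled counts, 9 were from other genotypes, and of the 11 such libraries for lbp-9, 8 were. No wild type library reached that level for lbp-6.

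Relative to transcript length, lbp-6 and lbp-9 were at the same level over all 35 libraries, with 7.64 and 7.65 mean scaled counts per kilobase, and lbp-6 was the higher of the pair in 20 libraries and lbp-9 in 15. The wild type levels were 4.10 per kilobase for lbp-6 and 8.73 for lbp-9, whereas those of eak-7;akt-1 were 12.05 and 9.59. The Pearson correlation of their log2 values over 35 libraries was 0.03. The variance of the fragments over these libraries was 1.38 times the mean for lbp-6 and 1.65 times for lbp-9, so that counting error makes up much of the spread and the correlation cannot show whether the 2 genes vary together. Per kilobase over all libraries, lbp-4 was at 1.82 and lbp-7 at 0.413.

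The lbp-4 gene was detected in 24 libraries, but with more than 3 fragments only in 1 library of daf-16;eak-7;akt-1 (4 fragments) and 1 of eak-7;akt-1 dpy-21 (5 fragments). Summed over 5 replicates it had 6 fragments in wild type, 4 in eak-7;akt-1, 8 in daf-16;eak-7;akt-1, 1 in eak-7;akt-1;daf-12, 9 in eak-7;akt-1 dpy-21, 6 in set-4(n4600) and 4 in set-4(dp268) mutants. The single fragment in eak-7;akt-1;daf-12 made that group the lowest, with 4 of its 5 libraries at 0, yet no group separated from another. Exact two-sided permutation tests against eak-7;akt-1 gave p from 0.167 to 0.714 (n = 5), and the test of eak-7;akt-1;daf-12 against wild type gave p = 0.0873. With a mean of 1.09 fragments, counting alone gives an error of 96% of the mean in 1 library.

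The lbp-7 gene had 1 fragment in wild type, 1 in daf-16;eak-7;akt-1, 4 in eak-7;akt-1;daf-12 (3 in replicate 10 and 1 in replicate 9) and 1 in the set-4(dp268) mutant, with none in the other 3 genotypes. The lbp-2 gene had 1 fragment, in eak-7;akt-1;daf-12 replicate 7. Both genes stayed at or under 3 fragments in each library, so no fold is given for them, and differences between genotypes were not detectable at this depth. The same holds for the 4 members listed at 0, among them lbp-5 and lbp-8.

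Summed over the 9 genes, the level was 12.5 ± 1.78 scaled counts in eak-7;akt-1, 11.97 ± 4.07 with daf-16 mutated, 6.88 ± 3.41 in eak-7;akt-1 dpy-21 and 7.70 ± 3.01 in eak-7;akt-1;daf-12 (SD, n = 5). Wild type, at 8.52 ± 6.31, spanned 1.98 to 18.9, the group in which lbp-9 ranged most widely. The set-4 alleles lay between, at 9.07 ± 2.83 for n4600 and 10.8 ± 2.89 for dp268.

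The 3 other tested loci with gene symbols that followed lbp-6 most closely over the 35 libraries, by the Pearson correlation of log2 values, were pph-5 (0.59), pes-9 (0.57) and arx-1 (0.52), against a median of 0.06 over all other tested loci. For lbp-9 they were dph-3 (0.51), pas-2 (0.50) and unc-87 (0.48), against a median of 0.07. The libraries share genotypes and the 9 that stood apart, and the counts are low, so these values only describe the present libraries.

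Other genes that bind or make fatty acids, in lists of known family members, included some with more fragments and called differences. Among the 8 genes for fatty acid and retinol binding proteins, 4 were tested, and far-2 was called in 2 comparisons. It stood at 87.1 ± 12.01 scaled counts in wild type, 51.3 ± 13.2 in the daf-16 triple mutant and 18.6 ± 3.17 in eak-7;akt-1 (SD, n = 5), so that it rose by 2.17 and 1.39 on the log2 scale (limma adjusted p = 3.49e-09 and 1.61e-05). The far-2 difference of wild type from eak-7;akt-1 is opposite in sign to that of lbp-6. In wild type the 4 tested genes had a median of 0.76 on the log2 scale, against -0.19 over all tested loci.

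Of the 10 genes listed for fatty acid elongation 3 were tested. Of these elo-6, which extends branched-chain and other fatty acids, fell in wild type, eak-7;akt-1;daf-12 and eak-7;akt-1 dpy-21. Its mean was 20.8 ± 9.44 in eak-7;akt-1 against 3.62 ± 1.90 in wild type, 7.56 ± 4.62 in eak-7;akt-1;daf-12 and 6.53 ± 2.83 in eak-7;akt-1 dpy-21 (SD, n = 5). On the log2 scale elo-6 changed by -2.14, -1.39 and -1.46 (adjusted p from limma 0.000397, 0.0281 and 0.016). Of the 7 desaturase genes 3 were tested, and fat-4, the enzyme that makes arachidonic acid, fell from 17.5 ± 3.44 to 10.7 ± 4.58 in daf-16;eak-7;akt-1, 10.6 ± 3.79 in eak-7;akt-1;daf-12 and 10.1 ± 1.5 in eak-7;akt-1 dpy-21. On the log2 scale fat-4 changed by -0.72, -0.71 and -0.72 (adjusted p from limma 0.0215, 0.025 and 0.017).

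These counts of called genes stand beside shares of 13% (wild type), 10.4% (daf-16), 9.99% (daf-12), 12.3% (dpy-21), 0.182% (n4600) and 0.545% (dp268) of all tested loci called against eak-7;akt-1. No tested acyl-CoA binding protein gene (2 tested of 7 listed names found in the data) or peroxisomal or lipid transfer gene (2 of 5) was called against eak-7;akt-1. The same held for mitochondrial fatty acid oxidation (5 of 16, in 4 loci), saposin-like proteins (6 of 23) and glyoxylate and dauer metabolism (2 of 9). No vitellogenin, fatty acid synthesis, lipase or lipid-sensing nuclear receptor gene passed the filter, including nhr-49. With either set-4 allele, no gene in any of these lists was called.

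Whole larvae mix many tissues, and fewer cells of a type cannot be told apart from less RNA per cell. Summed body wall muscle markers were lower in wild type (33.7 to 52.6 scaled counts) than in eak-7;akt-1 (65.7 to 97.8). The locus of tnt-2, which it shares with F53A9.11, gave 77.6% of the fragments of these 15 markers and was called lower in wild type. It was 1 of 3 tested marker loci of the list, and pat-10 was at 0 throughout. In eak-7;akt-1 dpy-21 the body wall muscle markers summed to 66.7 to 91.4, within the range of eak-7;akt-1. They summed to 42.8 to 73.8 with daf-12 mutated and to 52.1 to 70.4 with daf-16 mutated, with no tested locus of that list called. Pharynx muscle markers summed to 4.92 to 9.91 in wild type, 9.88 to 12.8 in eak-7;akt-1 and 2.64 to 9.54 with daf-16 mutated. Their 1 tested locus, tnt-4 with T08B1.1 and alh-5, was called lower with daf-16 mutated (-1.11 on the log2 scale, limma adjusted p = 0.0396). Neuron markers (1 tested locus, not called) summed to 4.21 to 9.91 in wild type and 6.49 to 13.3 in eak-7;akt-1. Germline markers (no tested locus) were at 0 to 3.69 and 0 to 5.71. Summed hypodermis and cuticle markers were higher in wild type, at 57.9 to 82.0 against 4.28 to 8.56 in eak-7;akt-1. Of their tested loci 4 of 5 were called higher, 4 of 14 markers were at 0, and dpy-5 gave 68.4% of their fragments. They were also higher than in eak-7;akt-1 with daf-12 mutated (65.6 to 122) and with daf-16 mutated (30.9 to 116), each with 4 of 5 tested loci called, and with dpy-21 mutated (16.4 to 41.8), with 1 called. Intestinal markers overlapped, at 165 to 403 in wild type and 194 to 530 in eak-7;akt-1, with 0 of 6 tested loci called and 4 of 14 markers at 0, and asp-3 gave 61.7% of their fragments. With daf-12 mutated the intestinal sum was 163 to 489, and asp-1, an aspartyl protease gene, was called lower (-0.88 on the log2 scale, limma adjusted p = 0.00227). The part of tissue makeup in the lbp values was not tested.

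The libraries that stood apart differed from the others in mean lbp-6 and lbp-9 level by less than the SD of either set. The 9 libraries had means of 4.78 ± 2.18 scaled counts of lbp-6 and 3.36 ± 2.16 of lbp-9 (SD). The other 26 had 3.77 ± 2.2 and 4.62 ± 3.02, and the ranges overlapped for both genes. Genotype is mixed into this contrast, since no set-4(dp268) library stood apart. Depth is mixed in as well, since the 9 libraries held 34193 to 58116 fragments and the other 26 held 48654 to 88068. Neither the differences nor the part of the 9 libraries in the lbp values, beyond the fit that left them out, was tested.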

How the data were processed

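Values came from 35 libraries, 5 replicates of each of 7 genotypes, made from 100 ng of polyA-selected RNA and read as paired ends. The values deposited by the authors are a signal per locus, a CuffDiff fragment count divided by the size factor of that library (scaled count). The submitters' processing notes name FastQC, cutadapt, TopHat2 2.0.9, Bowtie2 2.1.0, Cufflinks, Cuffdiff 2.1.1 and the build WBcel235; the study's methods name another CuffDiff version and the ce10 transcriptome, and the strand setting was not given in the sources used here. Assignment of reads by estimation can leave loci at 0 and split reads between like genes. The step of the values in each library, 0.669 to 1.43, gave whole fragments for at least 99.927% of values within 0.02 steps. Table totals were 34193 to 88068 fragments, and 3 fragments, the floor used here, were 2.01 to 4.28 scaled counts. With means near 4 fragments, counting alone gave lbp-6 and lbp-9 an error near 49.8 and 48.8% of the mean in 1 library.

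The test was limma 3.58.1 (trend, R 4.3.3) on log2(scaled count + 1) in 1 fit of all libraries, for loci that reached 5 scaled counts in 5 or more libraries, with Benjamini-Hochberg adjustment over 1101 loci in each comparison; a call needed a fold change of 1.5 and an adjusted p of 0.05. The limma fit, but not the other methods, was tested on simulated data. Exact two-sided permutation tests of single genes were made over all 252 arrangements in Python 3.11.15 with numpy 2.4.6, and the Poisson intervals with scipy 1.17.1. Alternatives were other pseudocounts and filters, rescaling, edgeR 4.0.16 and DESeq2 1.42.0 on the fragments, a fit of 2 genotypes, a replicate block, each replicate left out, and the 9 libraries that stood apart left out. The named genes were all lbp members, called genes of the lipid lists, and the 3 loci with symbols that correlated best with each tested member. Members and lists were chosen with earlier results of these data known. No sequence is shown.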

Additional observations from a re-analysis of the deposited data

Results flagged for a closer look

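A set of 7 values lay far from the other 4 libraries of their group, by the gap to the nearest library as a share of the group's range in 33 groups looked at. The limit is set so that chance passes it in about 1 of 20 groups of continuous values, a rate that does not apply here: a group with a single fragment passes by construction, and the lbp-4 value of 0 stood against exactly 1 fragment in each other library. Of these, 5 were a single fragment in a group otherwise at 0: lbp-2 in eak-7;akt-1;daf-12 replicate 7 (0.938 scaled counts), lbp-4 in the same library (0.938), and lbp-7 in wild type replicate 7 (1.065), daf-16;eak-7;akt-1 replicate 6 (1.404) and replicate 8 of the set-4(dp268) triple mutant (1.082). In replicate 7 of the set-4(dp268) triple mutant, lbp-4 was at 0 while the other 4 replicates had 1.06 to 1.22, and the summed lbp level was 5.75 scaled counts against 11.5 to 12.99. The lbp-6 gene was also at 0 in that library, and had at least 1 fragment in the other 34.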

How the results depend on the processing

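Over the 15 comparisons, 311 of 315 recomputed counts of lbp loci called were 0. The 4 that were 1 all came from lbp-6 in wild type against eak-7;akt-1: a pseudocount of 2, the 2 genotypes alone, the replicate block (-1.29, limma adjusted p = 0.0467), and leaving out wild type replicate 9, so that the counts without 1 replicate ran from 0 to 1. Over all its alternatives the lbp-6 value ran from -1.48 to -1.04, and without 1 replicate from -1.49 to -1.15, with adjusted p from 0.0384 to 0.147. Of 630 recomputed fold changes 600 kept their sign after rounding, where a value rounded to 0 counted as changed, and the largest of the others was 0.51. For lbp-9 against eak-7;akt-1, wild type turned to 0.008 with DESeq2, daf-16 to 0.046 (median of ratios), 0.040 (TMM), 0.129 (edgeR) and 0.142 (DESeq2), and set-4(dp268) to -0.042 without the 9 libraries. Against wild type, lbp-9 turned in eak-7;akt-1;daf-12 to 0.068 (pseudocount 0.5) and 0.509 (without the 9 libraries), in eak-7;akt-1 dpy-21 to 0.129 and in set-4(n4600) to 0.103 (both without the 9 libraries); lbp-6 in eak-7;akt-1 dpy-21 against eak-7;akt-1;daf-12 turned to -0.013 without them. Leaving out 1 replicate gave lbp-9 ranges of -1.04 to -0.07 (wild type), -0.29 to 0.14 (daf-16) and -0.12 to 0.14 (set-4(dp268)) against eak-7;akt-1, and -0.55 to 0.42 (daf-12) and -0.64 to 0.33 (set-4(n4600)) against wild type; for lbp-6 they were -0.64 to -0.19 (set-4(n4600)) and -0.96 to -0.24 (set-4(dp268)) against eak-7;akt-1, -0.13 to 0.35 (dpy-21 against daf-12) and -0.57 to 0.25 (dp268 against n4600). The cause was not tested.

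Calls over all loci moved by more than 1.5 times for dpy-21 against eak-7;akt-1 (135 to 55 with no filter), n4600 (2 to between 0 and 4) and dp268 (6 to between 1 and 6). Against wild type they moved from 9 to between 5 and 15 for daf-16, from 12 to between 3 and 15 for daf-12, from 88 to as few as 39 for dpy-21 and from 132 to as few as 80 for n4600. Between mutants, 7 became 11 (daf-12 against daf-16), 68 became 30 (dpy-21 against daf-16), 62 became 37 (dpy-21 against daf-12) and 2 became between 1 and 5 (dp268 against n4600).

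The replicate numbers share no stated litter or day. Deviations of same-numbered libraries had a median correlation of 0.03, 45 of 105 pairs were over 0.1, and 11 of 35 libraries correlated best with their own number, so the replicate block is given only here. Neither lbp-6 nor lbp-9 could be tested with a filter of 10 scaled counts. Depth is a limit: with 0 to 13 fragments of any lbp gene in a library, changes of lbp-1 to lbp-5, lbp-7 and lbp-8 were not detectable.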
